A study of Mus musculus with 18 samples.

Results

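The hippocampus and the neocortex are neighbouring parts of the dorsal telencephalon that take different fates. RNA of the 2 tissues was compared here in control mice at birth, postnatal day 0 (P0). The comparison took 4 of the 18 samples of the study, which were chosen by their labels and not by any measured value. They are 2 control hippocampi, hippocampus 1 and 2, whose genotype is given as Rnf2fl/+ or Rnf2fl/fl, and 2 control cortices, cortex 1 and 2, given as Kdm2bfl/+ or Kdm2bfl/fl. All 4 libraries therefore came from mice with at least 1 floxed allele, and the labels do not tell heterozygous from homozygous mice or say whether a control carried Cre. The study was about what happens to the hippocampus when the DNA-binding CxxC domain of KDM2B, or the ubiquitin ligase Ring1B that *Rnf2* encodes, is removed from *Emx1*-expressing cells, and the controls show how far the tissues differ without that removal. The hippocampi are of one mouse line and one deposited table and the cortices of another, so tissue, line and table cannot be told apart. Nothing says that the replicates are separate animals, and with 2 libraries against 2 an exact permutation test cannot give a two-sided p under 0.333.

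The hippocampus forms at the medial edge of the cortical sheet, next to the cortical hem, a signaling center that secretes Wnt and BMP proteins. Its fields are the CA pyramidal fields and the dentate gyrus with its granule cells, and the dentate gyrus keeps producing neurons around birth and later. The neocortex forms laterally and is layered, and its upper layers are filled by callosal projection neurons. Markers that tell these territories apart are largely transcription factors, receptor subunits and secreted signals.

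Levels are FPKM (reads scaled to gene length and to a size factor for the depth of each library). They were rescaled so that the 4 libraries share a common median ratio. Reads recovered from the tables came to 14654894 and 15719597 in the hippocampi and to 21905224 and 21247862 in the cortices. Across genes, Pearson's r of log2 levels was 0.981 between the hippocampi, 0.992 between the cortices and 0.882 to 0.901 between tissues. Genes are not independent replicates, so these r values only describe the libraries. A log2 difference is the mean log2(FPKM + 1) of the hippocampi minus that of the cortices, and it understates the change of genes with low levels. A gene was called higher or lower where this difference was above 1 in size and both hippocampal libraries lay on one side of both cortical ones. That order therefore holds for every called gene by rule, and where it is stated below it adds nothing to the call. Because each table had been scaled by itself, this call is a description without a test. The adjusted p values (Benjamini-Hochberg) given beside it come from limma-voom on the recovered reads and compare these libraries only.

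A mean level of 0.5 FPKM or more was reached by 12816 protein-coding genes. Of these, 1203 (9.39%) were called higher in the hippocampus and 626 (4.88%) lower. Groups that did not overlap were common, with the hippocampi above both cortices in 39.7% of genes and below them in 39.9%, so a lack of overlap by itself carries little. The median log2 difference over all genes was -0.01. Limma-voom at an adjusted p of 0.05 and the same fold threshold called 1865 genes higher (14.6%) and 1147 lower (8.95%), which include 1199 of the 1203 higher calls and 616 of the 626 lower ones.

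**Figure D1:**
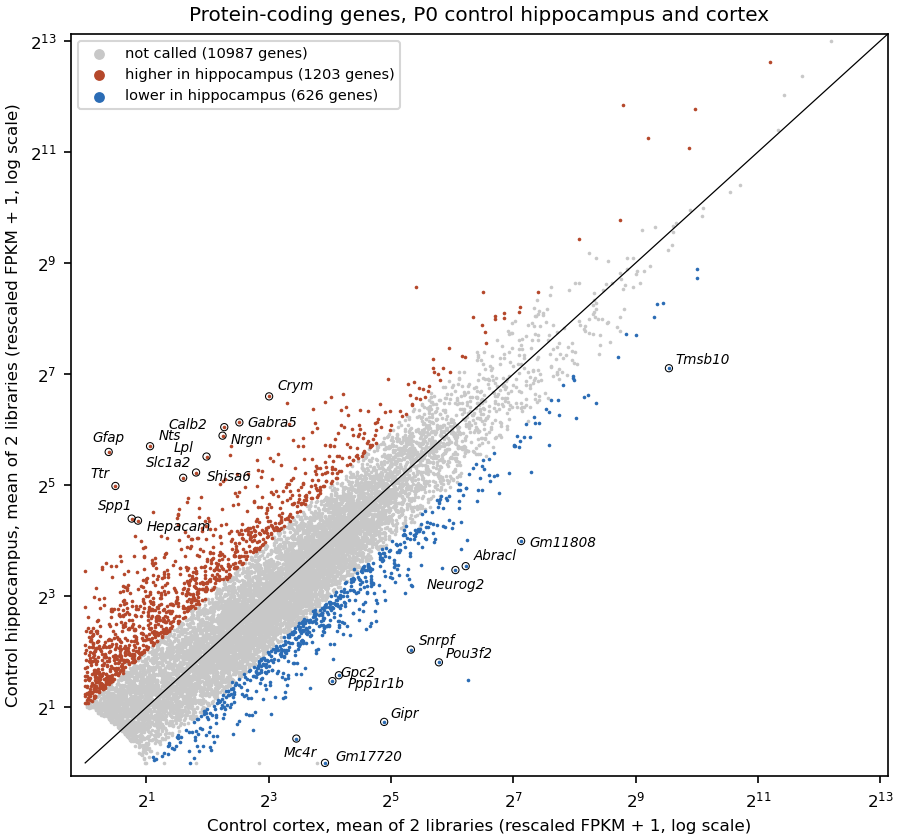
Mean rescaled FPKM + 1 of 12816 protein-coding genes in 2 control cortices (x axis) and 2 control hippocampi (y axis), both on log scales with the line of equal levels. Red points are the 1203 genes called higher in the hippocampus and blue points the 626 called lower; circles mark genes with the largest differences in each direction, from *Gfap* at the upper left to *Tmsb10* at the right.

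The largest difference in favor of the hippocampus was that of *Gfap* (chr11:102887336-102900912, GRCm38), the intermediate filament of astrocytes and of dentate neural stem cells. Its level was 57.6 and 37.2 FPKM in hippocampus 1 and 2 against 0.407 and 0.204 FPKM in cortex 1 and 2. The hippocampi thus lay far above the cortices, with a log2 difference of 5.18 (limma-voom log2 fold change 7.28, SE 0.57, adjusted p = 0.00011).

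Several of the other 12 genes with the largest differences are known from neurons. *Gabra5*, the GABA-A receptor subunit typical of hippocampal pyramidal neurons, was at 78.0 and 60.0 FPKM against 5.43 and 4.05 FPKM. *Crym*, which encodes the thyroid hormone binding protein mu-crystallin, was at 117 and 74.7 FPKM against 9.45 and 4.62 FPKM. *Calb2*, the calcium-binding protein calretinin, was at 68.2 and 48.5 FPKM against 4.31 and 3.17 FPKM. In each of these 3 genes both hippocampi lay far above both cortices. *Shisa6*, an auxiliary protein of AMPA receptors, stood at 36.8 and 36.1 FPKM against 2.29 and 2.74 FPKM. *Lpl*, lipoprotein lipase, stood at 48.1 and 41.3 FPKM against 3.01 and 2.90 FPKM. Both were nearly equal within a tissue and had log2 differences of 3.42 and 3.53.

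Glial genes were again among the 12, with *Slc1a2*, the astrocytic glutamate transporter, at 30.1 and 38.1 FPKM against 2.71 and 1.37 FPKM. *Hepacam*, an adhesion protein of astrocytes, was at 20.7 and 18.4 FPKM against 0.854 and 0.785 FPKM.

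The last 4 of the 12 differed between the hippocampi themselves. *Nts*, which encodes the peptide neurotensin, was at 73.8 FPKM in hippocampus 1 and 28.2 FPKM in hippocampus 2, against 1.41 and 0.762 FPKM. *Nrgn*, which encodes the postsynaptic calmodulin-binding protein neurogranin, was at 96.3 and 33.7 FPKM against 5.08 and 2.59 FPKM. *Ttr*, the transthyretin gene of the choroid plexus, was at 49.4 and 11.9 FPKM against 0 and 0.818 FPKM. Hippocampus 1 held the higher level in each, and *Spp1*, osteopontin, had the same order at 25.8 and 14.4 FPKM against 0.454 and 0.935 FPKM. Their groups did not overlap, but their limma-voom standard errors ran up to 2.45 (*Ttr*, adjusted p = 0.031).

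Among the genes with the largest differences in favor of the cortex was *Pou3f2* (chr4:22482780-22488366), the upper-layer POU factor also called Brn2. Its level was 3.06 and 1.96 FPKM in the hippocampi against 45.8 and 62.3 FPKM in the cortices, 21.5 times higher in the mean of the cortices. The log2 difference was -3.97 (limma-voom -4.47, SE 0.25, adjusted p = 4.9e-05). *Neurog2*, the proneural factor of dorsal progenitors, was at 9.23 and 10.9 FPKM against 65.5 and 65.3 FPKM. Both transcription factors were low in both hippocampi and high in both cortices.

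Receptors and signaling proteins made up a second group among the 12 lower genes. *Gipr*, the receptor of the incretin GIP, was at 0.499 and 0.837 FPKM against 26.4 and 30.8 FPKM. *Mc4r*, the melanocortin 4 receptor, was at 0.277 and 0.432 FPKM against 10.4 and 9.48 FPKM. *Ppp1r1b*, which encodes the dopamine signaling protein DARPP-32, was at 2.16 and 1.81 FPKM against 16.5 and 17.0 FPKM. All 3 were close to the floor of detection or low in the hippocampi.

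The other 6 lower genes are less specific to a territory. *Gpc2*, a glypican of developing axons, was at 1.01 and 2.54 FPKM against 14.6 and 16.3 FPKM. *Tmsb10*, the actin-binding thymosin beta 10, was at 142 and 131 FPKM against 900 and 590 FPKM. *Snrpf*, a core protein of the spliceosome, was at 3.07 and 3.16 FPKM against 56.7 and 21.5 FPKM, so the cortices also differed widely from each other. *Abracl* had a log2 difference of -2.74 and *Gm11808* one of -3.15. *Gm17720*, with a deposited length of 27 bases, had no reads in either hippocampus and 8.14 and 20.1 FPKM in the cortices; with 3 reads per library as the floor, it was at least 2.01-fold higher in the cortex.

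The genes known for hippocampal fields were mostly called higher. They were listed with earlier results of these data known, so this is not an independent check of the tissue labels. Of 22 such genes, 17 passed the filter on low levels, 13 of the 17 were called higher against 9.39% of all genes, 1 was called lower and 3 were not called. Their median log2 difference was 1.38. For every list below, as for this one, the background is 9.39% of all genes called higher and 4.88% called lower. The 5 that did not pass, *Rgs14*, *C1ql2*, *Dsp*, *Tdo2* and *Lct*, reached at most 0.625 FPKM in any library.

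*Prox1* (chr1:190118035-190170714), the homeodomain factor that makes and keeps dentate granule cells, was at 20.3 and 23.4 FPKM in the hippocampi against 1.38 and 0.913 FPKM. *Neurod1*, needed for granule cell differentiation, was at 99.1 and 98.8 FPKM against 18.4 and 16.8 FPKM. *Lef1*, the Wnt effector on which the dentate gyrus depends, was at 1.6 and 1.87 FPKM against 0.390 and 0.196 FPKM. These dentate genes were at similar levels in both hippocampi, and the groups lay apart in each. *Calb1*, calbindin of maturing granule cells and CA1, was at 5.16 and 3.84 FPKM against 1.03 and 0.636 FPKM.

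Genes of the CA fields were likewise higher. *Zbtb20*, a repressor that specifies CA1 and represses neocortical fate, was at 22.1 and 38.1 FPKM against 5.77 and 4.51 FPKM. *Grik4*, a kainate receptor subunit of CA3, was at 7.34 and 9.17 FPKM against 0.723 and 0.509 FPKM. *Nr3c2*, the mineralocorticoid receptor of CA2 and the other fields, was at 10.9 and 11.3 FPKM against 0.265 and 0.280 FPKM, with a log2 difference of 3.25. Each of these lay above the cortices in both hippocampi. *Wfs1*, *Nectin3* and *Htr1a* had log2 differences of 1.29, 1.24 and 1.18, and *Emx2*, the medial patterning factor required for hippocampal growth, one of 1.38.

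The exceptions were few. *Pou3f1*, a POU factor of CA1 and of cortical neurons, was at 16.0 and 8.11 FPKM in the hippocampi against 25.5 and 28.7 FPKM in the cortices, and was called lower. *Pcp4*, a CA2 gene, was at 3.18 and 2.58 FPKM against 4.84 and 2.25 FPKM, so its groups overlapped. *Amigo2* and *Fn1* were not called, with log2 differences of 0.72 and 0.15.

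Genes of neocortical layers went in both directions. Of 28 such genes, 26 passed the filter, 11 were called lower in the hippocampus against 4.88% of all genes, 6 were called higher and 9 were not called, with a median log2 difference of -0.73. The lower ones include upper-layer genes. *Cux2*, a homeodomain factor of the upper layers, was at 4.16 and 4.84 FPKM against 18.5 and 18.2 FPKM. *Cux1*, its relative, was at 4.47 and 5.14 FPKM against 9.82 and 11.5 FPKM, just past the threshold. *Rorb*, the nuclear receptor of layer 4, was at 1.12 and 0.509 FPKM against 2.93 and 3.45 FPKM. *Inhba*, *Mef2c* and *Pou3f3* had log2 differences of -1.63, -1.70 and -1.42, and both hippocampi lay below both cortices in each of the 11.

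Deep-layer genes ranged from called lower to called higher. *Sox5*, which controls the sequence of corticofugal neurons, was at 4.74 and 4.73 FPKM against 22.9 and 26.4 FPKM. *Foxp2*, of layer 6, was at 0.353 and 0.316 FPKM against 1.99 and 2.94 FPKM. *Tbr1*, the T-box factor of layer 6 and early neurons of both regions, was at 24.4 and 24.7 FPKM against 51.4 and 56.5 FPKM. These 3 were called lower. *Fezf2*, the selector of subcortical projection neurons, was at 28.0 and 29.8 FPKM against 52.7 and 48.4 FPKM, a log2 difference of -0.79 that missed the threshold. *Bcl11b*, also called Ctip2 and known from both deep layers and hippocampal neurons, was at 28.3 and 33.2 FPKM against 29.2 and 29 FPKM and overlapped. *Zfpm2*, of layer 6, and *Etv1*, of layer 5, had log2 differences of 1.79 and 1.35 and were called higher.

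The 6 layer genes called higher were *Crym*, *Cyp26b1*, *Zfpm2*, *Lmo4*, *Etv1* and *Plxnd1*. *Cyp26b1*, an enzyme that clears retinoic acid, was at 6.48 and 6.90 FPKM against 0.255 and 0.0931 FPKM. *Lmo4*, a LIM-only cofactor with areal expression, was at 68.5 and 69.6 FPKM against 28.2 and 24.7 FPKM. Both hippocampi lay above both cortices in all 6.

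**Figure D2:**
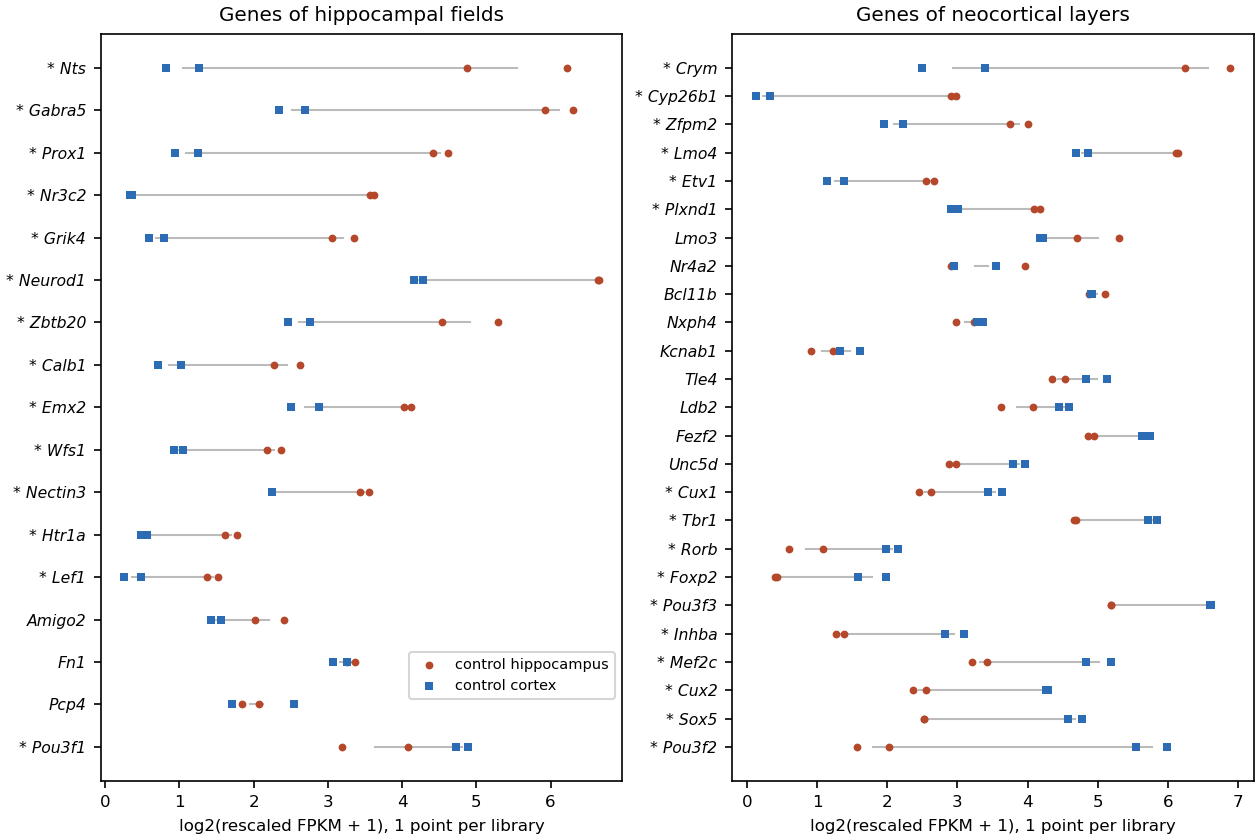
Level of 17 genes of hippocampal fields (left) and 25 genes of neocortical layers (right) as log2(rescaled FPKM + 1), with 1 point per library (red circles, 2 control hippocampi; blue squares, 2 control cortices) and gray lines between the group means. Stars mark called genes; *Nts* to *Lef1* lie to the right in the hippocampi, and *Pou3f2* and *Sox5* show wide gaps the other way.

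Patterning factors that divide the cortical sheet were split. Of 15 tested, 5 were called higher (33.3%, against 9.39% of all genes) and 2 lower (13.3%, against 4.88%). *Nr2f2*, the COUP-TFII nuclear receptor of caudal and medial tissue, was at 13 and 17.8 FPKM against 2.75 and 1.90 FPKM. *Zic1*, a zinc finger factor of medial and meningeal cells, was at 13.6 and 13.5 FPKM against 2.41 and 2.12 FPKM. *Dmrt3*, a medially graded factor, was at 4.77 and 4.05 FPKM against 1.49 and 0.644 FPKM. In the other direction, *Emx1*, the dorsal factor whose promoter drives Cre in this study, was at 12.2 and 13.3 FPKM against 28.3 and 25.4 FPKM. *Meis2*, a TALE homeodomain factor, was at 6.99 and 9.43 FPKM against 26.3 and 27.4 FPKM. *Kdm2b* and *Rnf2* themselves were not called, *Kdm2b* at 12.3 and 13.8 FPKM against 15.2 and 16.3 FPKM (limma-voom adjusted p = 0.074) and *Rnf2* at 33.5 and 31.8 FPKM against 29.8 and 32.4 FPKM.

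Wnt and BMP signals of the hem were the next question. The study reported higher levels of Wnt signal genes in the hippocampus than in the neocortex at birth. It reported the reverse for genes of the boundary at the opposite edge of the cortical sheet, including *Pax6* and *Sfrp2*. Its tissues came from control and *Kdm2b* mutant brains, whereas the hippocampi here are of the Rnf2 line. Of 16 hem genes, 12 passed the filter, and 8 of them were called higher (66.7%, against 9.39% of all genes) and none lower, with a median log2 difference of 1.32. *Id3*, a BMP target, was at 45.1 and 26.5 FPKM against 6.04 and 3.19 FPKM. *Bmp6*, a BMP ligand, was at 2.78 and 3.08 FPKM against 0.0902 and 0.0929 FPKM. *Wnt5a*, a ligand of noncanonical signaling, was at 7.35 and 7.02 FPKM against 1.32 and 0.840 FPKM. *Wnt8b*, a ligand of the hem and medial pallium, was at 2.28 and 2.79 FPKM against 0.104 and 0 FPKM. All 4 lay above both cortices in both hippocampi, and *Bmp6* and *Wnt8b* were near the floor of detection in the cortices.

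Most Wnt ligands were expressed at low levels in either tissue. Only 9 of 19 passed the filter, of which *Wnt5a*, *Wnt8b* and *Wnt4* were called higher, 1 was called lower and 5 were not called. *Wnt4* was at 3.03 and 2.50 FPKM against 0.210 and 0.0972 FPKM. The lower one was *Wnt7b*, a ligand of cortical neurons and of brain vessel growth, at 20.8 and 17.2 FPKM against 65.3 and 61.5 FPKM. It was the most abundant of the 4 in both tissues, and the summed FPKM of all 19 ligands was 50.2 and 41.8 in the hippocampi and 80.5 and 74.6 in the cortices. *Wnt3a*, the hem ligand that hippocampal growth requires, was below the filter at 0.730 and 0.912 FPKM against 0.0319 and 0 FPKM (named after its values were seen).

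Receptors were split by family member. Of 13 Wnt receptors tested, 4 were called higher (30.8%, against 9.39% of all genes) and 2 lower (15.4%, against 4.88%). *Fzd10* was at 3.23 and 2.26 FPKM against 0.271 and 0.209 FPKM. *Fzd7* was at 9.84 and 12.3 FPKM against 3.80 and 2.97 FPKM. *Fzd9* was at 11.6 and 9.71 FPKM against 3.47 and 3.42 FPKM. These Frizzled receptors, which bind Wnt ligands at the cell surface, lay above the cortices in both hippocampi, and *Fzd6* had a log2 difference of 1.03. *Fzd2* was lower at 3.95 and 4.23 FPKM against 12.8 and 15.0 FPKM, as was *Fzd8* at 3.55 and 3.41 FPKM against 9.47 and 8.90 FPKM.

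Modulators and targets of Wnt signaling had a median log2 difference of 0.95, with 9 of 20 tested genes called higher (45.0%, against 9.39% of all genes) and 2 lower. *Sp5*, a zinc finger factor and direct target of the canonical pathway, was at 4.37 and 3.66 FPKM against 0.188 and 0 FPKM. *Frzb*, a secreted Wnt antagonist, was at 6.16 and 5.61 FPKM against 0.258 and 0.0980 FPKM. *Lgr4*, a receptor of R-spondins, was at 6.53 and 5.09 FPKM against 1.23 and 0.893 FPKM. *Dkk3*, a divergent member of the Dickkopf family, was at 33.1 and 30.0 FPKM against 9.43 and 8.77 FPKM. In these 4 genes both hippocampi lay above both cortices. A pair of further secreted antagonists had the opposite order. *Sfrp1* was at 11.4 and 15.1 FPKM against 31.1 and 37.9 FPKM. *Sfrp2*, which marks the antihem at the opposite edge of the cortical sheet, was at 2.94 and 2.65 FPKM against 7.43 and 8.94 FPKM. Of the antihem genes, 5 passed the filter and *Tgfa* was the one called higher, at 6.71 and 4.80 FPKM against 1.23 and 1.61 FPKM.

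TCF and LEF factors, which carry the canonical signal to DNA, recognize a motif with the core CTTTGA. This core (or TCAAAG on the other strand) was searched in the 250 bases before RefSeq gene starts (GRCm38.p6), and 13.8% of 32851 starts held it. Of the Wnt modulators and targets tested, 13 had such a sequence and 3 held the core, *Sp5*, *Lef1* and *Frzb*. Of the 13, 6 were called higher, and *Lgr4*, *Rnf43* and *Rspo1* among these held none, so the core and the call did not go together throughout. The matches are shown, each in a window of 30 bases with the core in capitals, 5′ to 3′ along the gene's strand.
Sp5, chr2:70474707-70474736, plus strand: gacactttgtcaCTTTGAgcactgccttgg
Sp5, chr2:70474807-70474836, plus strand: cggcaaggccccCTTTGAtcaggaaaatcc
Lef1, chr3:131156102-131156131, plus strand: taaaatacatggTCAAAGgaaaataggtat
Lef1, chr3:131156162-131156191, plus strand: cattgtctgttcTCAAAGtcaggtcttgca
Frzb, chr2:80447474-80447503, minus strand: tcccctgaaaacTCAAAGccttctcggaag
The *Sp5* matches begin 204 and 104 bases before its start and that of *Frzb* 95 bases before. Those of *Lef1* begin 180 and 120 bases before 1 of its 4 starts, which lies inside the gene (chr3:131110471-131224356). The *Frzb* window, too, lies inside the deposited span of its gene (chr2:80411970-80447625) and not upstream of it. A gene was counted if any of its starts held the core, whereas 13.8% is a share of starts. Starts with 2 or more matches made up 1.37% of all. *Axin2*, another target of the pathway, also held none in this window and had a log2 difference of 0.35. A match of 6 letters is a description and not a binding site.

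Progenitor and neurogenesis genes were split between higher and lower, with 5 and 6 of 22 called (22.7% and 27.3%, against 9.39% and 4.88% of all genes) and a median log2 difference of -0.17. *Hopx*, a marker of dentate stem cells and outer radial glia, was at 31.1 and 18.6 FPKM against 2.7 and 1.67 FPKM. *Sox9*, a factor of radial glia and astrocytes, was at 15.4 and 15.1 FPKM against 5.16 and 6.32 FPKM. *Tnc*, a matrix protein of radial glia, was at 48.4 and 79.0 FPKM against 18.7 and 20.5 FPKM. *Neurod1*, described above, belongs to this list too and was called higher. The lower genes besides *Neurog2* include the following. *Mfng*, a modifier of Notch, was at 4.53 and 4.60 FPKM against 16.5 and 16.9 FPKM, and *Gadd45g*, an antiproliferative gene of newborn neurons, was at 7.70 and 8.42 FPKM against 26.2 and 20.7 FPKM. *Neurog1* had a log2 difference of -1.19. Of 25 proliferation genes, 24 had a log2 difference below 0, against 6521 of all 12816 genes, with a median of -0.73. The mitotic kinases *Aurkb* (-1.11) and *Plk1* (-1.01) were called lower, and these 2 make up 8.0% of the list, against 4.88% of all genes. In bulk tissue, fewer cells of a type and less RNA per cell cannot be told apart, here or in any later list.

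Genes of projection neurons were called in both directions. Of 18 projection neuron genes, 8 were called higher (44.4%, against 9.39% of all genes) and 3 lower (16.7%, against 4.88%), with a median log2 difference of 0.69. *Camk2a*, the kinase of mature excitatory synapses, was at 23.7 and 21.6 FPKM against 1.85 and 1.93 FPKM. *Camk4* was at 16.7 and 14.4 FPKM against 2.86 and 2.35 FPKM. *Neurod6* and *Neurod2*, factors of all young pyramidal neurons, were lower, *Neurod6* at 197 and 219 FPKM against 477 and 543 FPKM and *Neurod2* at 122 and 127 FPKM against 247 and 255 FPKM. *Nrn1*, a neuritin, was at 5.56 and 5.36 FPKM against 21.8 and 17.9 FPKM.

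Glutamate and GABA receptor subunits carry fast and modulatory transmission at synapses. Of 33 tested, 19 were called higher (57.6%, against 9.39% of all genes) and 2 lower, and the median log2 difference was 1.20. Besides *Gabra5* and *Grik4*, *Grin3a*, an NMDA receptor subunit of juvenile synapses, was at 12.2 and 7.03 FPKM against 0.523 and 0.576 FPKM. *Grm5*, the metabotropic receptor mGluR5, was at 29.6 and 27.4 FPKM against 4.90 and 4.58 FPKM. The lower ones were *Gria2*, the AMPA subunit that limits calcium entry, at 31.2 and 37.1 FPKM against 79.9 and 94.5 FPKM, and *Grik3*, a kainate subunit, at 8.04 and 8.57 FPKM against 25.8 and 24.4 FPKM.

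Axon guidance genes were called in both directions, 16 higher and 7 lower of 45 (35.6% and 15.6%, against 9.39% and 4.88% of all genes). *Nrp2*, the semaphorin receptor of hippocampal mossy fibers, was at 34.6 and 56.3 FPKM against 6.05 and 2.22 FPKM. *Sema3c*, a secreted semaphorin, was at 73.2 and 90.8 FPKM against 13.1 and 11.3 FPKM. *Slit3*, a repellent ligand of Robo receptors, was at 6.26 and 9.76 FPKM against 0.877 and 0.246 FPKM. The hippocampi lay above the cortices in each, and *Epha6* had a log2 difference of 1.94. On the cortical side, *Robo2* was at 6.08 and 5.6 FPKM against 19.4 and 22.9 FPKM, and the ephrin *Efnb2* was at 14.1 and 15.3 FPKM against 51.6 and 50.7 FPKM. *Sema3f*, a ligand of the receptor Nrp2, was at 2.82 and 3.34 FPKM against 12.3 and 13 FPKM, the reverse order of *Nrp2*. *Epha3* had a log2 difference of -1.69.

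Among 13 neuropeptide genes tested, 6 were called higher (46.2%, against 9.39% of all genes) and 1 lower. *Grp*, gastrin-releasing peptide, was at 26.2 and 26.1 FPKM against 3.49 and 0.898 FPKM. *Cck*, cholecystokinin, was at 74.9 and 60.6 FPKM against 9.0 and 9.16 FPKM. *Pnoc*, the nociceptin precursor, was at 7.09 and 5.65 FPKM against 0.387 and 0.798 FPKM. In all 3 the hippocampi lay well above the cortices. *Npy*, neuropeptide Y of interneurons, was lower at 22.3 and 16.0 FPKM against 81.3 and 58.2 FPKM. Of 19 interneuron genes, 2 were called higher and 1 lower, shares of 10.5% and 5.26% that are near those of all genes (9.39% and 4.88%), and the median log2 difference was 0.23. *Gad1*, the GABA-synthesizing enzyme, was at 14.3 and 9.93 FPKM against 4.81 and 4.69 FPKM, and *Nxph1* had a log2 difference of 1.11.

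Cajal-Retzius cells are early reelin-secreting neurons that come from the hem and persist along the hippocampal fissure, and most of their genes were higher. Of 9 tested, 7 were called higher (77.8%, against 9.39% of all genes) and all 9 had log2 differences above 0, with a median of 1.61. *Reln*, the secreted guide of radial migration, was at 43.8 and 66.8 FPKM against 10.1 and 9.02 FPKM. *Ndnf* was at 14.8 and 19.3 FPKM against 2.84 and 2.67 FPKM, and *Nhlh2* at 14.4 and 16.3 FPKM against 4.85 and 3.69 FPKM. Several of these genes, *Calb2* and *Reln* among them, are also known from other neurons.

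Glial genes were called in one direction. Of 13 astrocyte genes, 9 were called higher (69.2%, against 9.39% of all genes) and none lower, with a median log2 difference of 1.67. *Aqp4*, the water channel of astrocyte endfeet, was at 15.0 and 5.54 FPKM against 0.112 and 0.303 FPKM. *Apoe*, the lipid carrier of astrocytes and microglia, was at 127 and 51.4 FPKM against 16.0 and 12.4 FPKM. Hippocampus 1 held more of each than hippocampus 2, and the summed astrocyte markers were 486 and 348 FPKM against 120 and 117 FPKM. Of 10 oligodendrocyte lineage genes, 5 were called higher (50%, against 9.39%). *Olig1* was at 55.3 and 30.0 FPKM against 5.69 and 6.31 FPKM, and *Pdgfra*, the growth factor receptor of oligodendrocyte precursors, was at 9.32 and 5.74 FPKM against 1.46 and 1.44 FPKM. *Olig2* and *Lhfpl3* had log2 differences of 1.27 and 1.83. *Mbp*, a gene of mature myelin, had a log2 difference of 0.11 (named as a defining marker).

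**Figure D3:**
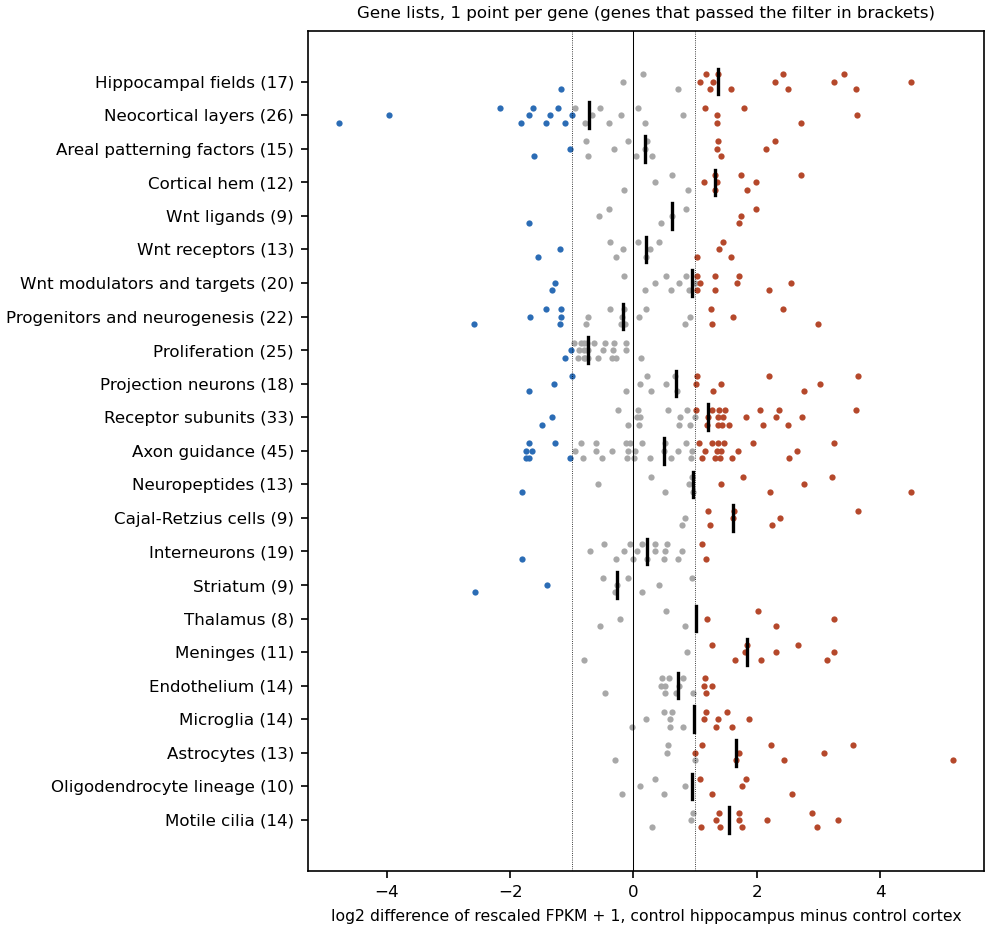
Log2 difference (control hippocampus minus control cortex, on log2(rescaled FPKM + 1)) of each gene that passed the filter in 23 lists, with 1 point per gene, red where called higher, blue where called lower and gray otherwise. Black bars are list medians and dotted lines the threshold of 1. Among the 23 lists shown, the meningeal list has the highest median at 1.84, and the neocortical layer and proliferation lists the lowest at -0.73. Other lists, such as that of the choroid plexus, are not drawn.

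Markers of tissue that borders the hippocampus moved with these results. Of 11 meningeal genes tested, 9 were called higher (81.8%, against 9.39% of all genes), and the 14 in the tables summed to 55.4 and 52.9 FPKM against 3.38 and 4.76 FPKM. *Col1a1*, a fibrillar collagen of meningeal fibroblasts, was at 9.24 and 11.8 FPKM against 0.10 and 0.311 FPKM, and *Col3a1* at 10.8 and 10.6 FPKM against 0.242 and 0.434 FPKM. *Col1a2* and *Dcn* had log2 differences of 2.67 and 2.31. *Crabp2*, of the same list, went the other way at 0 and 0.200 FPKM against 0.865 and 0.960 FPKM. It was not called, with a log2 difference of -0.80 (limma-voom adjusted p = 0.016). Of 13 choroid plexus genes only 3 passed the filter, with *Ttr* and *Enpp2* (1.98) called higher, and the 13 summed to 65.9 and 21.3 FPKM against 2.15 and 3.06 FPKM. Their defining transcription factor *Otx2* was at 0.988 and 0.754 FPKM against 0.0208 and 0.0215 FPKM, and *Kl* at no more than 0.0894 FPKM. The part of these cells in the hem, Wnt and patterning results was not tested.

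Genes of motile cilia, which ependymal and choroid plexus cells carry, formed a list that was added after their values were seen. Of 14 tested, 11 were called higher (78.6%, against 9.39% of all genes), and all 18 in the tables summed to 90.0 and 62.5 FPKM against 10.7 and 9.77 FPKM. *Foxj1*, the master regulator of motile cilia, was at 23.9 and 18.8 FPKM against 2.35 and 1.38 FPKM. *Dynlrb2*, a dynein light chain, was at 14.6 and 5.36 FPKM and had no reads in either cortex, which with 3 reads per library as the floor makes it at least 39.0-fold higher in the hippocampus. *Lrrc23* and *Rsph1* had log2 differences of 2.90 and 2.17.

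Immune, vessel and blood markers were checked as well. Of 14 microglial genes, 7 were called higher (50%, against 9.39% of all genes) and the median log2 difference was 0.97, with *Csf1r*, the receptor on which microglia depend, at 9.93 and 6.48 FPKM against 1.42 and 1.49 FPKM and *Cx3cr1* at 6.51 and 4.07 FPKM against 0.996 and 1.1 FPKM. *C1qb* had a log2 difference of 1.52, while *Tmem119* had one of -0.03. Of 14 endothelial genes, 4 were called higher (28.6%), *Ly6c1*, *Slco1c1*, *Kdr* and *Itm2a*, with log2 differences of 1.27, 1.17, 1.16 and 1.14. Of 5 blood genes tested, 1 was called higher and 1 lower, but 4 had negative log2 differences. The median of the 5 was -0.71. All 9 blood genes of the list summed to 282 and 224 FPKM in the hippocampi against 423 and 438 FPKM in the cortices. The gene called lower was *Hba-a1*, at 95.4 and 87.8 FPKM against 204 and 219 FPKM. The gene called higher was *Hba-a2*, at 45.5 and 30.5 FPKM against 21.4 and 9.44 FPKM. The alpha-globin genes are near-identical copies, so reads may have been split between them.

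Markers of neighboring brain regions were also present. Of 8 thalamic genes tested, 4 were called higher (50%, against 9.39% of all genes), *Nrp2*, *Lhx9*, *Plekhg1* and *Zic4*. *Lhx9* was at 5.16 and 6.11 FPKM against 0.542 and 0.157 FPKM. The thalamic factor *Gbx2* was at 0 and 0.0304 FPKM in the hippocampi, and *Slc17a6* and *Prkcd* had log2 differences of -0.22 and -0.54. Of 9 striatal genes, *Ppp1r1b* and *Drd1*, the dopamine D1 receptor, were called lower (22.2%, against 4.88%). The other 7 were not called, and 3 of the 9 had log2 differences above 0. *Drd1* was at 0.785 and 0.511 FPKM against 2.7 and 4.08 FPKM. All 15 striatal genes, *Ppp1r1b* and *Drd1* among them, summed to 23.6 and 21.6 FPKM against 39.5 and 42.7 FPKM. The part of striatal tissue in the lower calls was not tested. Of 8 immediate early genes, *Egr1* was at 2.54 and 6.72 FPKM against 0.412 and 0.424 FPKM, *Fos* at 2.13 and 1.38 FPKM against 0.131 and 0.135 FPKM, and *Btg2*, which is also a gene of neurogenic divisions, at 4.58 and 6.47 FPKM against 14 and 13.2 FPKM.

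The 3 control hippocampi of the Kdm2b line carry the same floxed gene as the cortices and come from the tissue of the hippocampi above. Their FPKM values were made by another pipeline, so only percentiles within a library, over 12245 genes matched by symbol, were set side by side. Both sets of hippocampi share the same cortices in what follows. *Gfap* stood at percentiles 94.7 and 91.0 in the hippocampi of the Rnf2 line, 93.0, 91.1 and 93.4 in those of the Kdm2b line, and 4.15 and 2.04 in the cortices. *Prox1* stood at 80.4 and 83.9, then 77.3, 83.4 and 80.1, then 15.8 and 11. *Pou3f2* stood at 26.8 and 17.4, then 8.31, 11.6 and 13, then 93.1 and 95.9. For these 3 genes the hippocampi of both lines lay on the same side of the cortices.

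Hem and Wnt genes were placed as follows. *Wnt5a* stood at 52.0 and 51.0, then 54.8, 57.6 and 54.3, then 15.2 and 10.1. *Sp5* stood at 36.5 and 31.5, then 22.6, 11.3 and 20.4, then 1.49 and 0.135. *Wnt7b* stood at 80.9 and 77.1, then 67.1, 66.8 and 67.3, then 95.7 and 95.9. In these 3 the hippocampi of the Kdm2b line lay on the side of the other hippocampi, but *Fzd9* differed. It stood at 66.1 and 60.8, then 29.3, 19.4 and 24.7, then 30.7 and 30.4, so the hippocampi of the Kdm2b line lay below both cortices.

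Other genes named above were not placed that way either. *Nts* stood at 96.3 and 87.0 in the Rnf2 line but at 3.01, 6.68 and 40.9 in the Kdm2b line, beside 15.9 and 9.08 in the cortices. *Snrpf* stood at 26.8 and 27.8 in the Rnf2 line and at 83.4, 83.1 and 84.6 in the Kdm2b line, beside 94.8 and 82.1 in the cortices. *Gpc2* stood at 6.56 and 22.6, then 89.0, 89.6 and 90.1, then 71.9 and 75.4. *Cux1* stood at 37.1 and 41.1, then 71.2, 64.6 and 66.9, then 59.7 and 64.5. *Sox9* stood at 74.0 and 73.3, then 44.4, 46.2 and 45.1, then 40.9 and 46.4. *Tmsb10* stood at 98.6 in both hippocampi of the Rnf2 line, at 99.96 in all 3 of the Kdm2b line, and at 99.93 and 99.86 in the cortices. In these 6 genes the hippocampi of the Kdm2b line did not all lie on the side of those of the Rnf2 line, and the genes shown are examples in both directions, not a tally. *Ttr* and *Spp1* stood between, *Ttr* at 20.6, 18.6 and 55.7 and *Spp1* at 46.1, 25.4 and 30.3 in the Kdm2b line. The field gene *Pcp4*, which was not called, stood at 27.7 and 23.1 in the Rnf2 line and at 92.4, 90.3 and 93.4 in the Kdm2b line. In the cortices *Pcp4* stood at 39.1 and 22.9.

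**Figure D4:**
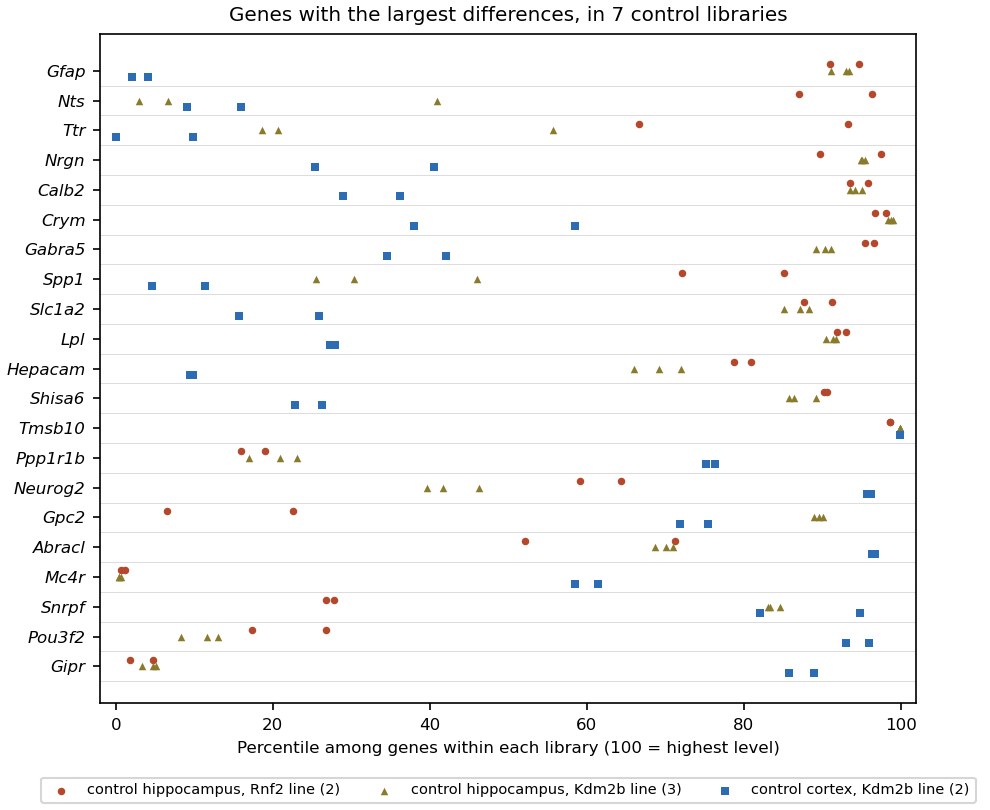
Percentile of 21 genes with the largest differences (12 higher and 9 lower in the hippocampus) within each of 7 control libraries: red circles, 2 hippocampi of the Rnf2 line; olive triangles, 3 hippocampi of the Kdm2b line; blue squares, 2 cortices of the Kdm2b line. The triangles lie with the circles for genes such as *Gfap*, *Crym* and *Mc4r*, and with the squares or beyond for *Nts*, *Snrpf*, *Gpc2* and *Tmsb10*.

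Gene length moved with the lower calls. The genes were cut into 5 length classes of nearly equal size. In the class with the shortest deposited length, 27 to 2493 bases, 9.09% were called lower, and the share went down with each longer class to 2.73% among genes of 7732 bases or more. The share called higher stayed between 9.01% and 9.63%. The median log2 difference ran from -0.13 in the shortest to 0.05 in the longest class. Short genes among the 12 lower ones are *Snrpf* (861 bases), *Abracl* (1056 bases) and *Tmsb10* (1276 bases), while *Pou3f2* (5587 bases) is long. Of 87 ribosomal protein genes, which are short, 20 were called lower (23.0%, against 4.88% of all genes) and 2 higher, with a median of -0.61. Mitochondrially encoded genes made up 13.2% and 12.8% of the summed FPKM of the hippocampi and 5.54% and 5.88% of that of the cortices. These are shares of FPKM, not of reads. The part of RNA quality and library handling in these values was not tested.

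**Figure D5:**
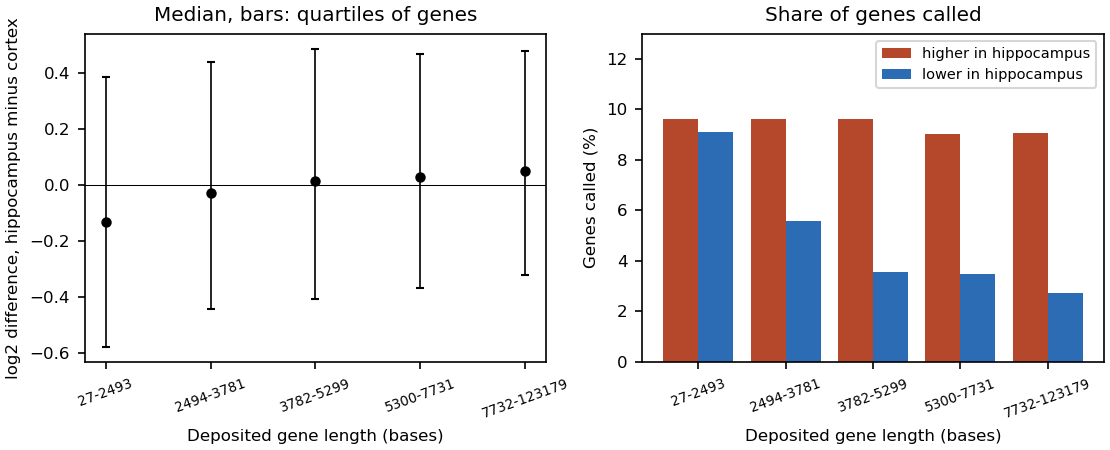
Log2 difference (left; points are medians, bars run from the lower to the upper quartile of genes) and share of genes called (right; red higher, blue lower in the hippocampus) in 5 classes of 12816 protein-coding genes by deposited length in bases. The share called lower goes from 9.09% in the shortest to 2.73% in the longest class, while the share called higher stays between 9.01% and 9.63%.

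The libraries also differed by sex-linked transcripts. Cortex 1 had 0.0172 FPKM of *Xist*, the RNA of the inactive X, and 12.4 FPKM of the Y-linked *Ddx3y*, whereas the other 3 had no *Ddx3y* reads and 73.8 to 182 FPKM of *Xist*. No Y-linked gene was called, since cortex 2 had none of their reads, as the hippocampi.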

How the data were processed

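RNA of P0 tissue was made into libraries by poly(A) selection, as the methods state, and nothing says that counting used strand, so reads of overlapping genes such as *Prox1* and its antisense RNA cannot be told apart. The authors deposited FPKM with a length for each Ensembl gene, and their notes name cutadapt, STAR, Cufflinks 2.2.1, DESeq2 and mm10 or GRCm38 without saying which made these tables. In both tables FPKM times length was a whole multiple of a single step (100% of values within 0.05), which gave the reads per gene, and the steps matched size factors set within each table of 4 libraries. FPKM values were therefore not tested, although a limma test had been planned.

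The tables were joined on the Ensembl identifier (54532 genes in both), and protein-coding genes that reached 0.5 FPKM on average were rescaled by median ratios (factors 0.962 to 1.04), with a pseudocount of 1. Limma 3.58.1 (voom with TMM factors) in R 4.3.3 was run on the recovered reads and tested on simulated data. In the table of the Kdm2b-line hippocampi, unnamed entries were dropped, and 1324 of the matched genes share an entry with another gene.

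Named genes are the 12 largest differences in each direction among called genes, members of the field and layer lists, up to 4 called members per direction of each other list, *Kdm2b* and *Rnf2*, and defining markers, with others named as seen. Some genes that this rule picks are not reported here. Members, lists and the call rule were chosen with earlier results of these data known. Alternatives were other scalings, pseudocount, filters, thresholds, biotypes, gene length, the replicate block and each library left out. Knockout libraries were not used.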

Additional observations from a re-analysis of the deposited data

How the results depend on the processing

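By the call used, 1203 genes were higher and 626 lower (65.8% of calls higher). A pseudocount of 0.1 gave 1881 and 1111, percentiles within library with a difference above 10 points 2227 and 2597 (46.2% higher), and a threshold of 0.4 without a test 3495 and 3325. All biotypes gave 1188 lower genes and genes of at least 3000 bases 338. FPKM as deposited gave 1044 and 823 (55.9% higher), and an equal FPKM total gave 1050 and 821 (56.1%). Limma-voom on recovered reads gave 1865 and 1147, without a fold threshold 3566 and 3478, and at 0.4 with an unadjusted p under 0.05 3576 and 3575. The percentile and voom alternatives with other thresholds, the 0.4 threshold and the gene length alternative were chosen after seeing the data. Each library left out in turn gave 1129 to 1337 higher and 571 to 782 lower genes. Of the genes named here, without hippocampus 1 *Btg2*, *Cux1*, *Emx1*, *Gad1*, *Neurod2*, *Nxph1* and *Plk1* lost the call, with log2 differences of 0.71 to 0.98 in size, as did *mt-Co3* (0.43). Without hippocampus 2, *Ly6c1*, *Pou3f1* and *Rorb* lost it (0.73 to 0.98). Without cortex 1, *Emx1* lost it (0.95), and without cortex 2 *Cux1*, *Fzd6*, *Hba-a2*, *Lef1*, *Neurod2* and *Plk1* lost it (0.78 to 0.98). *Fzd6* also lost its call without rescaling (0.96). By percentiles, *Gria2*, *Hba-a1*, *Neurod2*, *Neurod6*, *Pou3f3* and *Tmsb10*, which rank high in every library, lost it. None of the called genes that are named changed direction under any of these alternatives. The call rule, with no overlap and a difference above 1, leaves little room for that, so it is no check of direction. The Kdm2b-line hippocampi are not among these alternatives, and there *Cux1* and *Gpc2*, called lower, ranked above both cortices. The cause of the moved counts was not tested.

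With the replicate number as a block, limma-voom called 1913 higher and 1168 lower genes, and no called gene that is named lost its call. The numbers are shared labels of different mouse lines, and differences between replicate 1 and 2 correlated at 0.20 across genes between the tissues. A limma fit on FPKM, with and without a trend, was not run because the tables were scaled apart. Levels near 0 rest on few reads, so their fold changes are uncertain at this depth.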

Other observations

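Noncoding genes, which the comparison left out, were called by the same rule. Of 431 lincRNA genes that passed the filter on low levels, 69 were called lower (16.0%, against 4.88% of protein-coding genes) and 15 higher (3.48%, against 9.39%), and of 441 antisense genes 72 and 11. Genes of small RNA classes leaned further to lower calls. Of 234 miRNA genes 83 were called lower (35.5%) and 13 higher (5.56%), and of 157 snoRNA genes 54 (34.4%) and 13 (8.28%). The libraries were poly(A) selected, so reads at these genes need not come from the small RNAs themselves. Lower calls were also more common among short protein-coding genes, and the part of gene length here was not tested. Pseudogenes were more evenly split, with 117 of 913 processed ones called lower and 103 higher, and 8 of 56 unprocessed ones called in each direction. *Malat1*, a nuclear RNA of nearly all cells, was at 8.11 and 18.7 FPKM in the hippocampi against 135 and 106 FPKM in the cortices. *Miat*, a nuclear RNA of neurons, was at 17.3 and 21.0 FPKM against 94.2 and 78.5 FPKM. *Mir124a-1hg*, a host gene of the neuronal microRNA miR-124, was at 4.19 and 3.61 FPKM against 60.5 and 60.3 FPKM. Both hippocampi lay below both cortices in all 3. *Meg3* was not called, at 20.9 and 25.4 FPKM against 35.4 and 29.1 FPKM.

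Noncoding genes next to regional factors were looked up by name. *Prox1os* was at 5.62 and 3.76 FPKM against 0.478 and 0.274 FPKM, and *Emx2os* at 4.07 and 4.66 FPKM against 1.08 and 0.586 FPKM. *Pantr1* and *Pantr2*, near *Pou3f3*, had log2 differences of -1.86 and -2.76. *Dlx6os1* was not called, at 2.87 and 5.47 FPKM against 7.21 and 8.12 FPKM. These genes were named after their values were seen.

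Among mitochondrially encoded genes, *mt-Nd6*, which lies on the other strand from most of them, had the largest log2 difference at 3.03, with 3987 and 3317 FPKM against 466 and 423 FPKM. *mt-Co3* was at 701 FPKM in hippocampus 1 and 55.9 FPKM in hippocampus 2, beside 43.8 and 39.1 FPKM. Its log2 difference was 2.24 with both and 0.43 without hippocampus 1.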
